A study of Danio rerio with 4 samples.

Results

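The genes described here encode the ligands and receptors that steer cells and axons by contact or over a distance: Eph receptors and ephrins, semaphorins and plexins, Slits and Robos, and netrins with their Unc5 receptors. They are called guidance genes below. An interval, that is a peak listed by the authors, was a member when either of its 2 flanking-gene columns named a gene whose zebrafish symbol starts with epha, ephb, efna, efnb, sema, plxn, slit (without slitrk), robo, ntn or unc5. The rule uses no measured value. It found 407 of 22907 intervals: 129 of 6129 (2.10%) for Sox2 at late blastula, 151 of 7130 (2.12%) for Pou5f1-Flag at late blastula, 118 of 7747 (1.52%) for Pou5f1-Flag at the 512-cell stage and 9 of 1901 (0.473%) for Input. They named 54 genes. The prefix unc5 also takes in unc50, which encodes a Golgi protein and is not a netrin receptor. It is kept and shown apart. No netrin-G gene was named.

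The lists came from chromatin immunoprecipitation with sequencing (ChIP-seq) of whole zebrafish embryos, 1 sample per group, so no difference between groups has a replicate check and no p-value is given. Sox2 was precipitated with an anti-Sox2 antibody from wild-type late blastula embryos, and the Input, with no antibody, came from the same genotype and stage. Pou5f1-Flag was precipitated with anti-FLAG M2 from MZspg embryos, maternal-zygotic mutants of the pou5f1 gene, that had received Pou5f1-Flag mRNA by injection. In these embryos the tagged protein came from injected mRNA and not from the gene itself. The labels give 20000000 pooled nuclei for a blastula sample and 2000000 for the 512-cell sample, each after fixation with 1% paraformaldehyde. Stage, nuclei number and library therefore cannot be told apart between the Pou5f1-Flag lists, and antibody, genotype and tag cannot be told apart between Sox2 and Pou5f1-Flag.

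Eph receptors are receptor tyrosine kinases that bind ephrins on a neighbouring cell. Their meeting usually makes the cells part, and in zebrafish this helps to form somite and hindbrain boundaries. Class 3 semaphorins are secreted and signal through plexins, mostly with a neuropilin as partner, whereas the other vertebrate classes are bound to the membrane and can bind plexins directly. Slits are secreted ligands of Robo receptors, and netrins attract through Dcc and repel through Unc5. All are best known from axon growth and vessels, and several also act in the cell movements of gastrulation, the stage that follows the blastula. Sox2, a SoxB1 factor, and Pou5f1, the zebrafish relative of mammalian Oct4, bind DNA around the start of zygotic transcription.

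Guidance genes were named in all 3 ChIP lists in 25 of 54 cases (46.3%, exact 95% interval 32.6 to 60.4), against 2486 of all 9679 genes that any list names (25.7%). Sox2 intervals named 41 of the 54 (75.9%, 62.4 to 86.5), where 51.7% of all named genes had a Sox2 interval. Late blastula Pou5f1-Flag intervals named 39 (72.2%, 58.4 to 83.5), with 55.2% for all genes. The 512-cell list named 43 (79.6%, 66.5 to 89.4), with 73.0% for all genes, and Input named 5 (9.26%, 3.08 to 20.3), with 9.39% for all genes. At a false discovery rate of at most 1% the 512-cell list named 15 guidance genes, fewer than the 36 named by Sox2 and the 31 by late blastula Pou5f1-Flag intervals, so no more than 15 could then be in all 3 lists. The median false discovery rate at 512 cells was 1.99% for the members and also for the whole list. Shares of all genes at the 1% limit were not analysed here. Without that limit the shares for guidance genes were above those of all genes for Sox2 and late blastula Pou5f1-Flag. At 512 cells and in Input the share of all genes lay inside the interval of the guidance genes. These intervals, here and below, are exact binomial ones that cover counting error over genes or peaks and say nothing of variation between embryos. Some neighbouring genes, such as plxnb2a.1 and plxnb2a.2, were named by the same peaks. Genes are thus not all independent, and the exact intervals over genes may be too narrow.

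Few guidance genes had intervals in a single ChIP list. Sox2 intervals were the only ChIP intervals to name ephb3a and sema3b, late blastula Pou5f1-Flag intervals the only ones to name slit1b, and 512-cell intervals the only ones to name plxnb2a.3, sema3aa, sema5a, sema6ca and slit1a. The share was 3.70% for Sox2 alone (all named genes, 7.90%), 1.85% for late blastula Pou5f1-Flag alone (9.10%) and 9.26% for 512 cells alone (27.3%). The gene plxnd1 was named by Input alone. Of the 102 zebrafish symbols with these prefixes in the RefSeq table, 63 have a curated transcript, and all 54 named genes are among them. The 9 others with a curated transcript, named by no list, were epha3, ephb2b, ephb3b, ntn4, robo1, sema6a, sema6ba, sema7a and unc5da. For the 39 symbols without one, an absence from the lists carries no information, since the gene columns hold curated accessions. For the 9 it may carry none either. Whether they had a curated accession in the older annotation behind the gene columns was not analysed here.

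**Figure D1:**
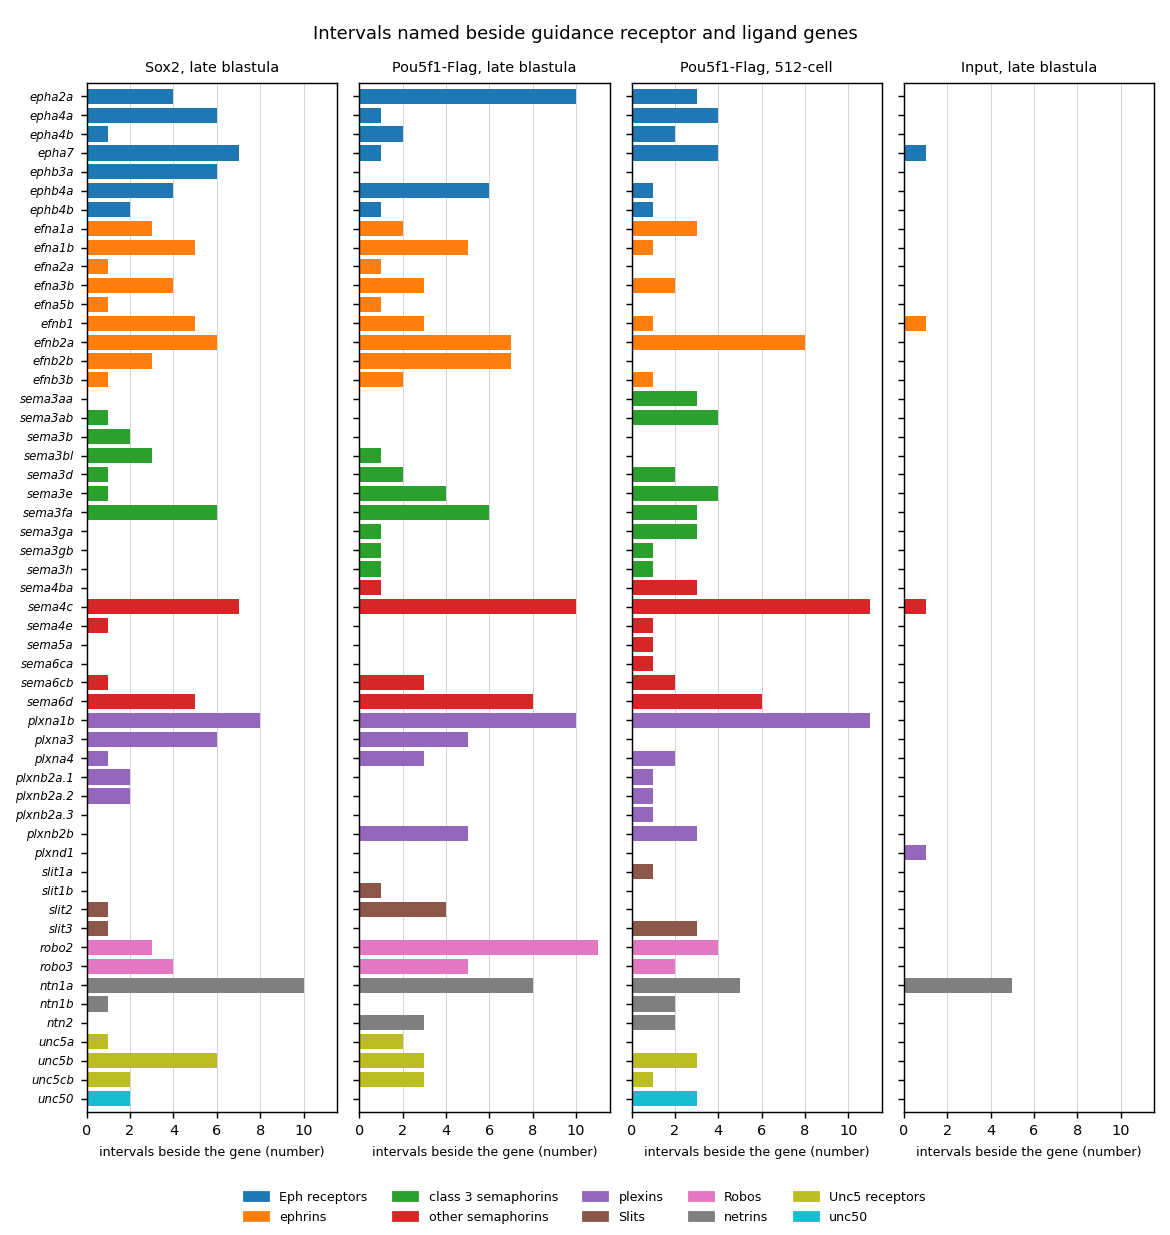
Number of intervals (horizontal axis) that name each of the 54 guidance genes (vertical axis), in the 4 lists, with bars coloured by gene group. The longest bars are robo2 with 11 late blastula Pou5f1-Flag intervals, and sema4c and plxna1b with 11 intervals each at 512 cells, whereas Input has 5 intervals at ntn1a and 1 at each of 4 other genes.

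Many of these genes had several intervals. The median was 3 intervals per named guidance gene for Sox2 and for late blastula Pou5f1-Flag and 2 at 512 cells, against 2 for all named genes in each ChIP list. At least 5 intervals were found at 13 of 41 guidance genes for Sox2 (31.7%, with 11.9% of all genes), at 14 of 39 for late blastula Pou5f1-Flag (35.9%, with 13.5%) and at 5 of 43 at 512 cells (11.6%, with 8.80%). The late blastula Pou5f1-Flag counts include intervals of that list that overlap each other, and its 151 members merge to 138. Once merged, efna1b, ephb4a, plxna3, plxnb2b and robo3 had 4 each and fell below 5. The share of all genes after merging was not analysed here. An interval names a gene on either side of it whatever the distance and whatever other genes lie between. A gene in a stretch where the columns name few others can therefore collect many. In the GRCz12tu gene order a median of 2 protein-coding genes lie between the paired flanking genes of the ChIP intervals, and 151 lie between psmb3 and ntn1a. The paired genes were adjacent for 33.3% of Sox2, 25.9% of late blastula and 24.6% of 512-cell Pou5f1-Flag members with 2 named genes. The distance from an interval to a gene start in Zv9, and whether it is exonic or intronic, was not analysed here. Coordinates are Zv9, counted from 1, which for the 512-cell list is assumed, since it names no build.

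By strength the guidance gene intervals lay near the middle of each list. Their read counts ran from 22 to 699 with a median of 66 for Sox2 (all intervals, 63), from 15 to 1032 with a median of 40 for late blastula Pou5f1-Flag (all, 41) and from 25 to 577 with a median of 53 at 512 cells (all, 52). As a percentile of the list, the medians were 52.4, 48.9 and 52.3 in that order, where 50 is the middle of any list. Of the Sox2 members, 17 (13.2%) were among the strongest 10% of their list, as were 12 (7.95%) for late blastula Pou5f1-Flag and 17 (14.4%) at 512 cells. Read counts were not put on 1 scale between lists, since library totals were not analysed here.

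**Figure D2:**
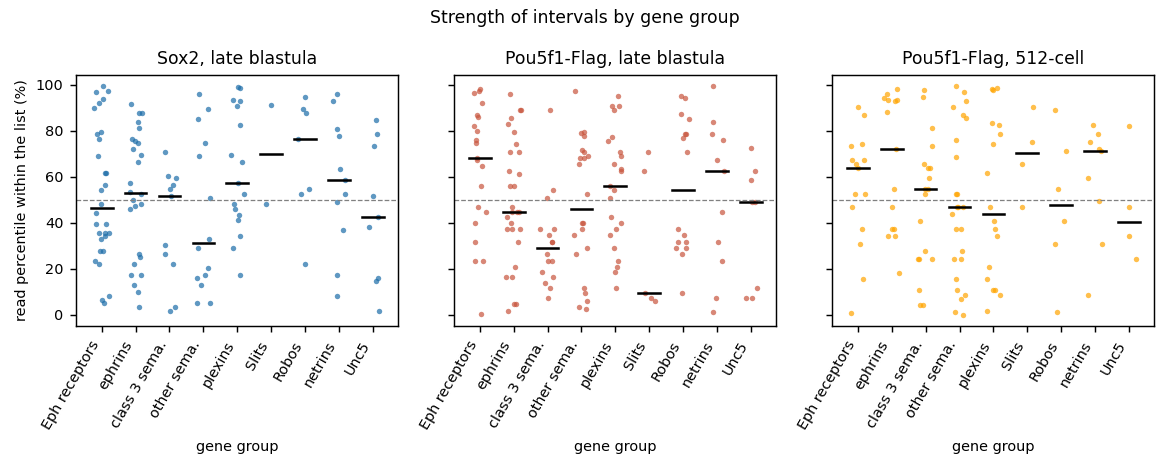
Read percentile within its own list (vertical axis, %) of each guidance gene interval, by gene group (horizontal axis), in the 3 ChIP lists. Points are intervals, black lines are group medians, and the dashed line marks 50. Eph receptor intervals have medians of 46.3, 68.2 and 63.7 from left to right, and class 3 semaphorin intervals 51.6, 29.0 and 54.9.

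Eph receptors had 30 Sox2, 21 late blastula and 15 512-cell Pou5f1-Flag intervals and 1 Input interval, at 7 of the 10 genes with a curated transcript. The leading gene was epha2a, which encodes a receptor of A-type ephrins. Its Sox2 intervals had 699, 339, 93 and 79 reads. Its 10 late blastula Pou5f1-Flag intervals, 8 once those overlapping each other were merged, had 15 to 231 reads, and its 512-cell intervals had 91, 65 and 60 reads. All of them lay within 31.8 kb (chromosome 6, 45828069 to 45859856), the most compact set among the genes with 10 or more loci. The 699-read Sox2 interval (45850476 to 45851231, between epha2a and rbp7b) ranked 31 of 6129 and was met by late blastula Pou5f1-Flag intervals of 231 and 199 reads and by the 91-read 512-cell interval. At the other end, on the rbm19 side, the 339-read Sox2 interval (45828069 to 45828741) was met by a 90-read late blastula Pou5f1-Flag interval and by none of 512 cells. The lists therefore coincided at the strongest epha2a position and parted at the next. The 91-read, 65-read and 60-read 512-cell intervals had false discovery rates of 1.11%, 2.47% and 1.99%. At a limit of 1% the 512-cell list therefore drops out of the strongest position and no longer names epha2a.

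The other strong Eph gene was ephb4a, whose product marks venous endothelium later in development. Its Sox2 intervals had 372, 251, 124 and 52 reads, and the first 3 each had a late blastula Pou5f1-Flag interval, of 116, 38 and 66 reads. The strongest (chromosome 5, 70797875 to 70798440, between b4galt4 and ephb4a) ranked 152 for Sox2. The single 512-cell interval of ephb4a, of 48 reads, lay elsewhere. Both factors were thus listed at 3 ephb4a positions at late blastula, and the 512-cell list at none of them.

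Other Eph genes differed in the number of intervals per list and in their rank within it. At ephb3a there were 6 Sox2 intervals, the strongest of 223 and 193 reads, and no Pou5f1-Flag list named the gene. A 512-cell interval of 57 reads, named beside other genes, did overlap the 112-read Sox2 interval of ephb3a (chromosome 2, 7800373 to 7800865). At epha4b lay the strongest guidance gene interval of late blastula Pou5f1-Flag without an Input overlap (319 reads, rank 147, chromosome 2, 40558593 to 40559987, between epha4b and uggt1). It was met by no interval of another ChIP list. Sox2 had 1 interval at epha4b, of 43 reads (rank 4395 in its own list). The genes epha4a, which takes part in hindbrain segment boundaries, and epha7 had 6 and 7 Sox2 intervals of 27 to 119 reads, 1 late blastula Pou5f1-Flag interval each (77 and 87 reads, both at a Sox2 position) and 4 512-cell intervals each. At ephb4b no list exceeded 79 reads.

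Ephrins, the ligands, had 26 Sox2, 29 late blastula and 15 512-cell Pou5f1-Flag intervals and 1 Input interval, at all 9 genes with a curated transcript. Among the membrane-anchored A-type ligands, efna3b and efna1b are neighbours and share the intervals between them. Between them lay a Sox2 interval of 218 reads with a late blastula Pou5f1-Flag interval of 99 reads (chromosome 16, 25514500 to 25515052) and another of 131 and 58 reads (25511493 to 25511957). Another shared position followed on the slc50a1 side of efna1b (171 Sox2 reads, and 98 and 79 reads of overlapping late blastula Pou5f1-Flag intervals). The 64-read 512-cell interval between the pair met none of these. At efna1a, in contrast, the shared position was between Sox2 and the 512-cell list (59 and 125 reads, chromosome 19, 9103728 to 9104147), and the late blastula Pou5f1-Flag intervals of 86 and 58 reads stood apart from it.

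The B-type ephrins span the membrane. At efnb2a, which acts in somite boundaries and arteries, the counts were 6 Sox2, 7 late blastula and 8 512-cell Pou5f1-Flag intervals over 1224 kb. A position between arglu1a and efnb2a was in all 3 lists, with 94 Sox2, 29 late blastula and 124 512-cell Pou5f1-Flag reads (chromosome 9, 27134911 to 27135321). The 29-read interval had a false discovery rate of 1.33%, above a limit of 1%. The strongest 512-cell intervals of efnb2a lay far from that position towards gtpbp8 and met no interval of the other ChIP lists. They had 215 reads (28357828 to 28358531, rank 152), 157 reads (27519356 to 27520053, rank 317), 134 and 128 reads. The 134-read one had a false discovery rate of 1.99%. At the late blastula no efnb2a interval of Pou5f1-Flag exceeded 49 reads. Its paralogue efnb2b had 7 late blastula Pou5f1-Flag intervals, the strongest of 185 reads (chromosome 1, 5933917 to 5934753), 3 Sox2 intervals of 99, 61 and 42 reads, no position in common and no 512-cell interval under its name. Within the span of the efnb2b intervals lay 3 512-cell intervals that name other genes. At efnb1 the 169-read and 110-read Sox2 intervals were shared with late blastula Pou5f1-Flag (48 and 72 reads) and the 107-read one with 512 cells (54 reads).

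Class 3 semaphorins, the secreted ligands, had 11 Sox2, 16 late blastula and 19 512-cell Pou5f1-Flag intervals and none in Input, at all 10 genes with a curated transcript. Of their 41 loci, 37 (90.2%) were in 1 ChIP list, close to the 86.9% of all loci. A locus here and below is a set of overlapping intervals of the 3 ChIP lists that overlap no Input interval. The other 4 were all at sema3fa, which had 10 loci. One of these was in all 3 lists (chromosome 6, 42675114 to 42675547, 96 Sox2, 30 late blastula and 53 512-cell Pou5f1-Flag reads). Close by, a 98-read late blastula Pou5f1-Flag interval (42675884 to 42676298) met no other list. At sema3aa the 512-cell list had a 206-read interval (chromosome 4, 10317957 to 10318821, rank 163) and neither late blastula ChIP list named the gene. The same list had 140 reads at sema3e (chromosome 18, 9511871 to 9512276, rank 409), where late blastula Pou5f1-Flag reached 43 and Sox2 45 reads, with no position in common.

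Membrane semaphorins of classes 4 to 6 had 14 Sox2, 22 late blastula and 25 512-cell Pou5f1-Flag intervals and 1 Input interval. The strongest position without an Input overlap was at sema6d, a transmembrane ligand that can itself act as a receptor. Between gldn and sema6d (chromosome 18, 38645237 to 38645813) Sox2 had 307 reads, late blastula Pou5f1-Flag 228 and 512-cell Pou5f1-Flag 174, at ranks 246, 203 and 248. This was the guidance gene locus of all 3 lists with the best lowest percentile (96.0), and each list named the same gene pair. The other 4 Sox2 intervals of sema6d had 150, 93, 47 and 27 reads, of which the 47-read one was met by late blastula Pou5f1-Flag (56 reads). The 124-read 512-cell interval (38743714 to 38744141) lay near the 150-read Sox2 interval (38735387 to 38735855) without touching it.

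At sema4c, a class 4 member whose intervals mostly lay between it and tbx1, the 3 lists had 7, 10 and 11 intervals over 770 kb, and 23 loci in all. Of these 4 were in 2 lists and none in 3. Sox2 was strongest at 186 reads (chromosome 5, 16348095 to 16348583) and unshared there, late blastula Pou5f1-Flag at 72 reads on a 107-read Sox2 interval, and 512-cell Pou5f1-Flag at 106 reads on a 34-read late blastula Pou5f1-Flag interval. Of the guidance genes sema4c thus had the most loci, and none of them was in all 3 lists. The gene tbx1 on the far side is a T-box gene and no guidance gene.

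Plexins, the semaphorin receptors, had 17 Sox2, 23 late blastula and 18 512-cell Pou5f1-Flag intervals and 1 Input interval. They centred on plxna1b, with 8, 10 and 11 intervals and 21 loci on chromosome 6. Between cyth4b and plxna1b, Sox2 had intervals of 237 reads (973954 to 974469), 247 reads (977388 to 977906) and 573 reads (979378 to 980167, rank 52). The middle one was met by late blastula Pou5f1-Flag intervals of 106 and 52 reads, and the outer ones by no interval of either Pou5f1-Flag list. Further on, from 145.4 to 151.8 kb from the 573-read interval, the 512-cell list had intervals of 283 reads (1124736 to 1125595, rank 93), 200 reads (1126466 to 1126952) and 227 reads (1131241 to 1131873). The last was in all 3 lists, with 138 Sox2 and 152 late blastula Pou5f1-Flag reads, and the first 2 were in the 512-cell list alone. The strongest Sox2 and the strongest 512-cell positions of this gene were therefore different ones.

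The late lists named cyth4b on the far side of this stretch and the 512-cell list named zeb2b, so the gene columns differed there. A second plxna1b locus in all 3 lists (1574332 to 1574774, 108 Sox2, 53 late blastula and 81 512-cell Pou5f1-Flag reads) was named plxna1b by the 512-cell list and orc4 and chchd6b by the late ones. At plxna3, also an A-type plexin, the 457-read Sox2 interval (chromosome 8, 9927101 to 9927727, rank 82) was met by late blastula Pou5f1-Flag intervals of 98 and 58 reads. No 512-cell interval named plxna3, but 2 that name other genes lay within the span of its intervals. The B-type genes plxnb2a.1, plxnb2a.2 and plxnb2a.3 are neighbours and had no interval over 72 reads, and plxnb2b had Pou5f1-Flag intervals of up to 79 reads and none of Sox2.

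**Figure D3:**
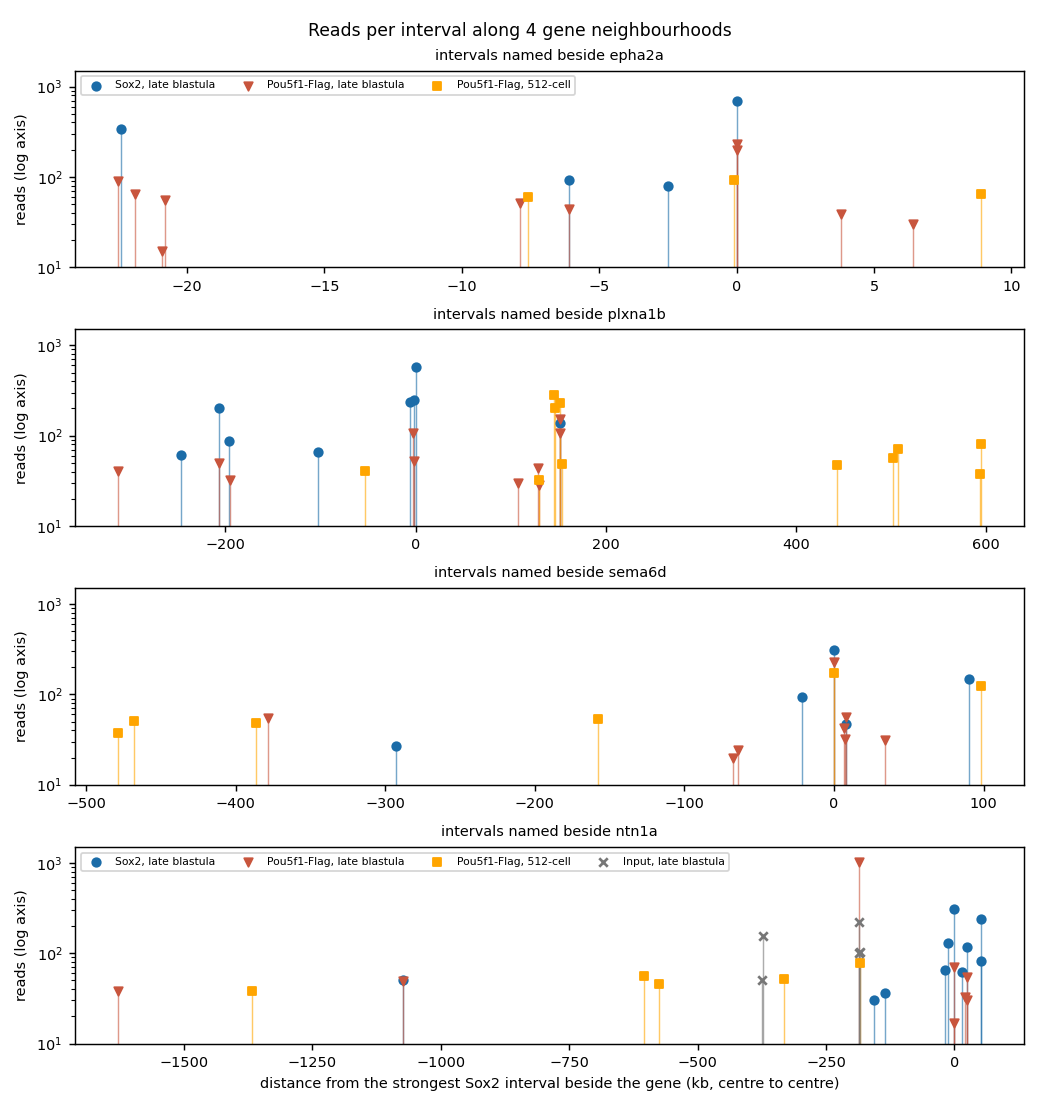
Reads per interval (vertical axis, logarithmic) against the distance in kb from the strongest Sox2 interval beside the gene (horizontal axis, centre to centre), for epha2a, plxna1b, sema6d and ntn1a. Each symbol is 1 interval of the list given by its shape and colour. At epha2a and sema6d all 3 ChIP lists have an interval at the Sox2 maximum, at plxna1b the 512-cell maximum lies 145.4 kb from it, and at ntn1a a 1032-read late blastula Pou5f1-Flag interval stands on Input intervals.

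Slits, the ligands of Robos, had 2 Sox2, 5 late blastula and 4 512-cell Pou5f1-Flag intervals, and all 4 genes with a curated transcript were named. Strong positions lay at the microRNA genes mir218a-1 and mir218a-2, which in vertebrates sit inside Slit genes. Between slit2 and mir218a-2, Sox2 had 210 reads and late blastula Pou5f1-Flag 58 (chromosome 1, 22564582 to 22565092). At slit3 the 107-read 512-cell interval met a 251-read Sox2 interval that the Sox2 list named beside mir218a-1 and pde6a (chromosome 14, 25835996 to 25836549). The single intervals of slit1a (512 cells, 67 reads) and slit1b (late blastula Pou5f1-Flag, 49 reads) had no partner.

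Robo receptors had 7 Sox2, 16 late blastula and 6 512-cell Pou5f1-Flag intervals, at robo2 and robo3. In zebrafish robo2 guides retinal axons and robo3 lets axons cross the midline. At robo3 the 273-read and 188-read Sox2 intervals (chromosome 10, 32442752 to 32443363 and 32419843 to 32420352) and the 66-read one were each met by late blastula Pou5f1-Flag, with 35, 85 and 33 reads. The 112-read Sox2 interval and the 512-cell intervals of 46 and 63 reads were not shared. At robo2, late blastula Pou5f1-Flag had 11 intervals, of 24 to 150 reads, and 2 of them were shared with 512 cells. The 150-read and 136-read intervals (chromosome 15, 38551220 to 38551973 and 38332529 to 38333362) met 512-cell intervals of 100 and 54 reads. At a false discovery rate of at most 1% neither of these overlaps remained. None of the 3 Sox2 intervals of robo2, of 169, 69 and 39 reads, met a Pou5f1-Flag interval. So 3 of 4 Sox2 intervals of robo3 met late blastula Pou5f1-Flag, where 28.8% of all Sox2 intervals did. At robo2, 2 of 11 late blastula Pou5f1-Flag intervals met the 512-cell list, near the 14.0% of all late blastula Pou5f1-Flag intervals. Both counts are small.

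Netrins, secreted relatives of laminins, had 11 Sox2, 11 late blastula and 9 512-cell Pou5f1-Flag intervals and 5 of the 9 Input intervals. At ntn1a lay 10 of the Sox2, 8 of the late blastula and 5 of the 512-cell Pou5f1-Flag intervals, and ntn1b and ntn2 held the rest. Between ntn1a and stx8 Sox2 had 7 intervals, of 309, 240, 129, 116, 82, 66 and 62 reads. On the psmb3 side it had 3, of 50, 36 and 30 reads. The 309-read interval (chromosome 6, 18055867 to 18056481) was in all 3 lists, with 70 late blastula and 61 512-cell Pou5f1-Flag reads, the last named beside psmb3 and stx8. The 240-read interval (18107576 to 18108171) was met by no interval of the other ChIP lists. On the psmb3 side a 1032-read late blastula Pou5f1-Flag interval (17869085 to 17871885) overlapped 3 Input intervals of 224, 103 and 100 reads, and a 79-read 512-cell interval lay on the same stretch. The strongest late blastula Pou5f1-Flag interval of all guidance genes therefore stood on Input intervals, and without it ntn1a reached 70 reads in that list.

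Unc5 receptors had 9 Sox2, 8 late blastula and 4 512-cell Pou5f1-Flag intervals and none in Input. The largest set was at unc5b, a repulsive netrin receptor also found on vessels. There Sox2 intervals of 148, 120 and 55 reads followed each other (chromosome 13, 29360912 to 29365875), and none met a Pou5f1-Flag interval. The other Sox2 intervals of unc5b had 35, 34 and 22 reads, the late blastula Pou5f1-Flag ones 60, 25 and 23, and the 512-cell ones 78, 47 and 44. None of the 9 Sox2 intervals of Unc5 genes was shared, where 28.8% of all Sox2 intervals met late blastula and 9.32% met 512-cell Pou5f1-Flag. With 9 intervals this is too few to set Unc5 genes apart from those shares. Of the 21 Unc5 loci, 20 (95.2%) were in 1 list, with 86.9% of all loci, and the other was a 60-read late blastula Pou5f1-Flag interval of unc5b met by a 58-read 512-cell interval that names nsmce4a and zgc:153142. The 5 intervals of unc50, of 32 to 80 reads, were all unshared.

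Of other genes of these pathways, such as neuropilins, Dcc, repulsive guidance molecules and the cytoplasmic partners of the receptors, 31 of the 57 looked up were named in any list. Sox2 intervals named 16 of the 31 (51.6%), late blastula Pou5f1-Flag 21 (67.7%), 512-cell Pou5f1-Flag 20 (64.5%), Input 3 (9.68%) and all 3 ChIP lists 8. The shares over all named genes were 51.7%, 55.2%, 73.0% and 9.39% in that order and 25.7% for all 3 ChIP lists. The share of the pathway genes was higher for late blastula Pou5f1-Flag, lower for 512 cells and close otherwise. With 31 genes these differences rest on few genes. No exact interval was computed for them, so no direction is read from them. The semaphorin coreceptor genes nrp2b and nrp2a had 9 and 0 Sox2, 6 and 3 late blastula and 5 and 8 512-cell Pou5f1-Flag intervals. The repulsive guidance gene rgma had 6, 6 and 1, with up to 327, 168 and 91 reads. Of the netrin receptor genes outside Unc5, dcc had 4 late blastula Pou5f1-Flag intervals of up to 52 reads and no interval in the other lists.

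How often Sox2 and Pou5f1 were listed at the same guidance gene position was close to the share over each whole list. Of the 129 Sox2 members, 35 (27.1%, 19.7 to 35.7) overlapped a late blastula Pou5f1-Flag interval by at least 1 bp, where all Sox2 intervals gave 28.8%. In the other direction it was 45 of 151 (29.8%, 22.6 to 37.8), with 30.6% for the list. Some of these 151 overlap each other, and with overlapping intervals merged the share was 25.4% (18.3 to 33.5). The share over the whole list after merging was not analysed here. Between the stages of Pou5f1-Flag it was 22 of 151 late blastula members (14.6%, 9.36 to 21.2), with 14.0% for the list, and 15 of 118 512-cell members (12.7%, 7.29 to 20.1), with 10.8% for the list. Sox2 members met the 512-cell list in 11 cases (8.53%, 4.33 to 14.7), with 9.32% for the list, and 512-cell members met Sox2 in 11 (9.32%, 4.75 to 16.1), with 7.44% for the list. Each of the 6 list-wide shares lay inside the interval of the members. With only intervals at a false discovery rate of at most 1%, the share of late blastula members in the 512-cell list was 5.15% (1.69 to 11.6). That of the 24 remaining 512-cell members was then 20.8% (7.13 to 42.2) at Sox2 and 8.33% (1.03 to 27.0) at late blastula Pou5f1-Flag. The order was the opposite, but these exact intervals overlap. List-wide shares at that limit were not analysed here.

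**Figure D4:**
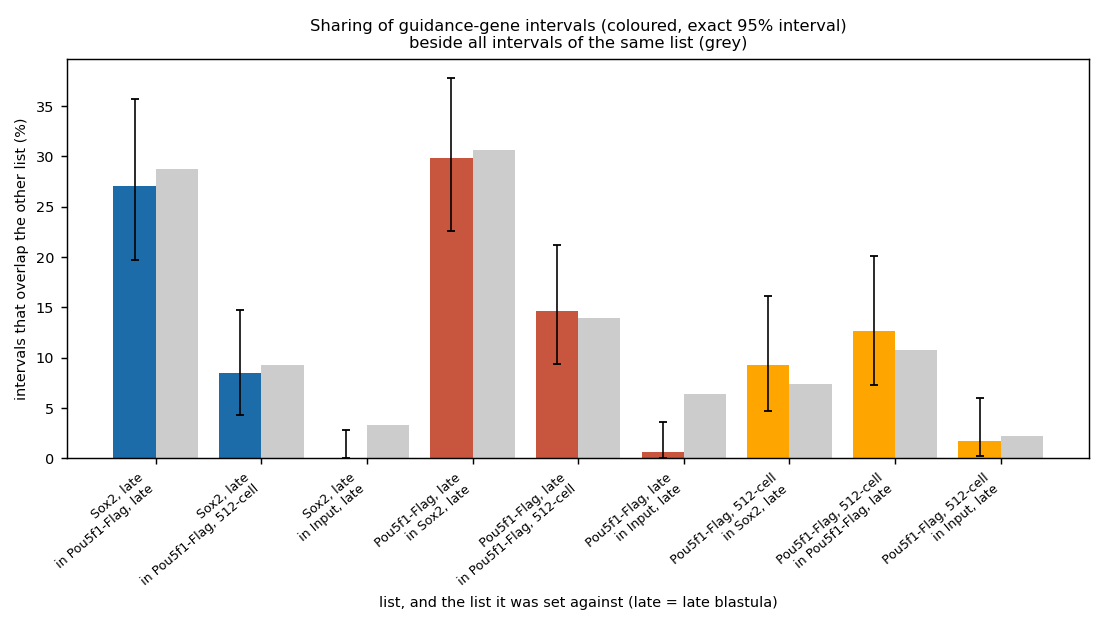
Share of intervals that overlap an interval of another list by at least 1 bp (vertical axis, %), for the pairs named on the horizontal axis. Coloured bars are guidance gene intervals with their exact 95% interval, and grey bars are all intervals of the same list. The pairs of ChIP lists run from 8.53% to 29.8% for guidance genes and from 7.44% to 30.6% for all intervals.

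Overlap with Input was rare among the members. None of the 129 Sox2 members overlapped an Input interval, which allows a share of up to 2.33% by 3 counts (exact upper bound 2.82%), where 3.34% of all Sox2 intervals did. For late blastula Pou5f1-Flag it was 1 of 151 (0.662%, 0.0168 to 3.63), with 6.45% for the list, and for 512 cells 2 of 118 (1.69%, 0.206 to 5.99), with 2.25% for the list. The late blastula share and the Sox2 bound were below those of their whole lists. These 3 intervals were the ntn1a ones and a 577-read 512-cell interval between sstr5 and sema5a (chromosome 24, 16829608 to 16830436), which lay on a 6108-read Input interval and was the only interval of sema5a. The Input intervals of epha7 (935 reads), efnb1 (31), sema4c (23) and plxnd1 (23) met no member, although the epha7 one lay on a 512-cell interval of 1107 reads that names no guidance gene. No Input of the 512-cell stage or of the injected embryos was analysed here.

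Shared members were stronger than unshared ones, as in the whole lists. Sox2 members with a late blastula Pou5f1-Flag interval had a median of 124 reads and those without 56.5, against 110 and 53 for all Sox2 intervals. For late blastula Pou5f1-Flag members with and without Sox2 the medians were 58 and 36 (list, 54 and 37), and for 512-cell members with and without a late blastula Pou5f1-Flag interval 81 and 51 (list, 91 and 51). With the Sox2 list cut into 4 parts by read count, 21 of 36 members of the top part (58.3%, 40.8 to 74.5) were shared with late blastula Pou5f1-Flag, against 58.8% of all intervals there, and in the lowest part 0 of 29 (0 to 11.9), against 9.54%.

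**Figure D5:**
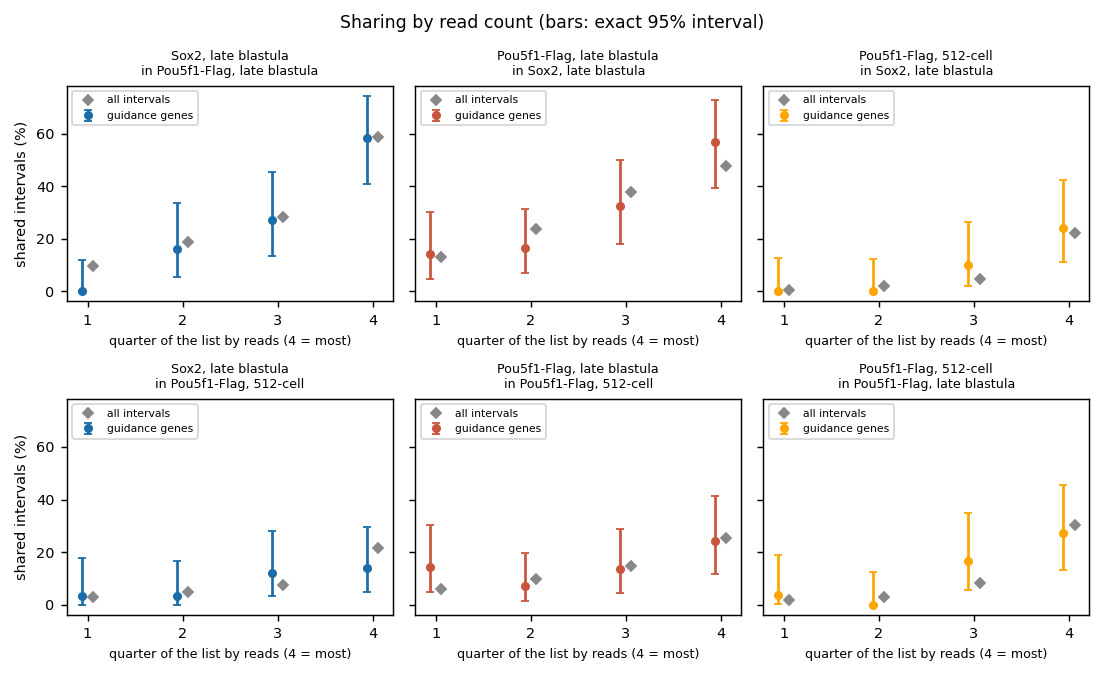
Share of intervals that overlap the other list named in each panel title (vertical axis, %) by read count, with each list cut into 4 parts (horizontal axis, 4 has most reads). Circles are guidance gene intervals with exact 95% intervals and diamonds all intervals of that part of the list. In the Sox2 list set against late blastula Pou5f1-Flag the circles climb from 0% to 58.3%.

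A gene named by both factors did not always have a position in common. Of 32 guidance genes named by Sox2 and by late blastula Pou5f1-Flag, 17 (53.1%, 34.7 to 70.9) had a Sox2 interval that met a Pou5f1-Flag interval, with 62.8% for all such genes. The 15 without included efna1a, efnb2b, epha4b, robo2, sema3e and unc5b. Sox2 and 512-cell Pou5f1-Flag both named 32 guidance genes. Of these, 10 (31.2%, 16.1 to 50.0) had a Sox2 interval under their name that met a 512-cell interval, with 25.3% for all genes. The 2 Pou5f1-Flag lists both named 31. Of these, 12 (38.7%, 21.8 to 57.8) had a late blastula interval under their name that met a 512-cell one, with 32.5% for all genes. In the comparisons with the 512-cell list most guidance genes were thus common by name without such an overlap. Only intervals of the first list that name the gene are counted. This leaves out slit3, whose 512-cell interval met a Sox2 interval named beside other genes.

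After merging, the Input-free members formed 330 loci, of which 276 (83.6%) were in 1 ChIP list, 47 (14.2%) in 2 and 7 (2.12%) in 3, against 86.9%, 10.9% and 2.21% of all 16960 loci. Both late blastula ChIP lists, without the 512-cell one, held 29 loci (8.79%, 5.96 to 12.4), with 7.51% of all loci. Loci of the 512-cell list alone were 97 (29.4%, 24.5 to 34.6), with 39.0% of all loci. The 7 loci in all 3 ChIP lists were those given above at sema6d, epha2a, plxna1b (both), ntn1a, sema3fa and efnb2a. No 1% limit on the false discovery rate was set here. At least the loci of epha2a, efnb2a and sema3fa and the second one of plxna1b each hold an interval above it. The sema6d locus holds none, with 0.394% as its highest rate. At 46 of the 54 loci in several lists every list named the same guidance gene, and at 8 the names differed, as at ntn1a and slit3. Within the spans of the named genes, 25 intervals of the 512-cell list named no guidance gene, against 6 Sox2 intervals and 11 of the late blastula Pou5f1-Flag list, so counts by name are lowest relative to position at 512 cells.

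Teleost fish keep duplicate copies of many genes, written a and b. Among the 10 pairs in which both copies have a curated transcript, both had a locus in 9, and the exception was ephb3a with 6 loci and ephb3b with none. The limit given above for curated genes that no list names applies to ephb3b. The copies were uneven in several pairs, with 17 loci at ntn1a and 3 at ntn1b, 17 at efnb2a and 10 at efnb2b, and 10 at epha4a and 4 at epha4b. These are counts by name. Several of the ntn1a loci lay on the psmb3 side, where 151 protein-coding genes lie between the named pair, so the unevenness can come from the naming. The distance to other loci of the same list differed between lists. With overlapping intervals merged, 58 of 138 late blastula Pou5f1-Flag loci (42.0%, 33.7 to 50.7) had another locus of that list within 5 kb, with 30.8% for the list. For Sox2 it was 33 of 129 (25.6%, 18.3 to 34.0, list 30.6%) and for 512 cells 18 of 118 (15.3%, 9.30 to 23.0, list 15.1%). Being neighbours can be mutual, so these loci are not independent and the exact intervals may be too narrow. No difference from a list is read from them.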

How the data were processed

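Each of the 4 samples has 1 deposited peak list. Per the file headers, each interval has a read count, forward and reverse counts, a false discovery rate in percent, a Wilcoxon filter p-value, the strand imbalance as a fraction of reads (the authors' normalized difference) and the RefSeq accessions of its flanking genes. The counts are the authors' own and are not normalized. The submitters' processing notes name CASAVA. For aligner, peak caller and thresholds, nothing is stated in the labels or headers. The identifiers name Zv9, except in the 512-cell list, whose intervals were read as Zv9. In the Pou5f1-Flag list of the late blastula the chromosome order starts anew after 1217 intervals and 5913 more follow, and some intervals of these 2 passes overlap each other. The labels say that Pou5f1 libraries had technical duplicates. Whether the passes are these was not tested. Library totals were not analysed here, so read counts are ranked within a list only.

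Accessions were matched to symbols through the RefSeq table of GRCz12tu, used for names and gene order only, at 94.5% (Sox2), 95.1% (late blastula Pou5f1-Flag), 95.6% (512-cell) and 92.0% (Input). Overlap meant at least 1 bp. Python 3.11.15, pandas 2.3.3, numpy 2.4.6, scipy 1.17.1 and matplotlib 3.10.9 were used, and overlap code was tested on simulated intervals. Genes and intervals were named by rule: the 8 strongest Input-free intervals of each ChIP list, its 3 strongest unshared ones, loci in all 3 lists, the 8 genes with most loci, intervals on Input and the strongest gene of each group. For genes with many loci the weaker intervals are given as counts. Other values printed were chosen after they were seen. The members and gene lists were chosen with earlier results of these data known. No test was run, since each group is 1 sample. Sequences, promoter motifs and exon or intron positions were not analysed here.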

Additional observations from a re-analysis of the deposited data

How the results depend on the processing

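Of 104 values recomputed under alternatives, 96 stayed within the bound (1.5 times for a count, the exact 95% interval for a share). With a false discovery rate of at most 1%, the 512-cell list kept 24 guidance gene intervals (118 before) at 15 genes (43 before, then the most of the ChIP lists and now the fewest, with 36 for Sox2 and 31 for late blastula Pou5f1-Flag), and late blastula Pou5f1-Flag kept 97 intervals (151 before). Under that limit the share of 512-cell intervals at Sox2 was 20.8% (7.13 to 42.2) and at late blastula Pou5f1-Flag 8.33% (1.03 to 27.0), exact intervals that overlap. That of late blastula Pou5f1-Flag intervals at 512 cells was 5.15%, and of Sox2 intervals at 512 cells 3.92%. Shares and gene counts over whole lists were not analysed under that limit. With centres within 100 bp in place of 1 bp of overlap, late blastula Pou5f1-Flag gave 8.61% at 512 cells and 0% at Input. Fewer intervals pass under the stricter limits by their construction. Counting intervals by position inside the gene spans, an alternative chosen after seeing the data, gave 135 Sox2, 162 late blastula and 143 512-cell Pou5f1-Flag intervals. No paired analysis was possible because each group has 1 sample. For the same reason no replicate could be left out, and the intervals given cover counting error only.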
